A study of Mus musculus with 12 samples.

Results

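The genotype by methotrexate interaction was read from all 12 arrays of the series, 3 in each of 4 groups: WT untreated, WT with MTX, KO untreated and KO with MTX. For every probe set that the platform annotation pairs with 1 gene symbol, the MTX effect in KO mice (treated minus untreated) was taken, and the MTX effect in WT mice was subtracted from it. These were 21218 of 35556 probe sets, standing for 18820 genes. A positive interaction means that the gene moved further up, or less far down, in KO than in WT mice.

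The series examined intestinal mucositis and whether it differs without TLR2. Each array held RNA of the proximal jejunum of 1 mouse. WT mice were C57BL6/J, KO mice carried the strain name B6.129-Tlr2tm1Kir/J, and both untreated groups were labelled as having had no treatment. Treated mice were given MTX into the peritoneum on 4 days, each dose 40 mg per kg, and were killed on day 7. No injection and no day of sampling is given for the untreated mice in the sources used here, and nor is it said whether WT and KO mice were littermates, so an effect of either cannot be told apart from the groups.

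Methotrexate is a folate analogue that inhibits dihydrofolate reductase, which starves dividing cells of the one-carbon units needed for nucleotides. In the small intestine the crypts divide fastest, and their loss is followed by loss of the absorptive cells on the villi and then by regrowth. TLR2 is a cell-surface receptor for bacterial lipoproteins, carried by myeloid cells and by parts of the epithelium, and it signals through MYD88 to NF-kB.

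Among untreated mice the single probe set for Tlr2 did not separate the genotypes, and among treated mice it was higher in every KO array. It read 4.37, 4.65 and 4.38 in untreated WT, 4.49, 4.65 and 4.51 in treated WT, 4.36, 5.02 and 5.01 in untreated KO and 6.18, 5.46 and 5.28 in treated KO mice. Its position relative to the altered segment of the gene is not given in the sources used here, so the signal checks no label, and WT and KO stand throughout for the labelled genotypes. The interaction of Tlr2 itself was 0.77 ± 0.33 on the log2 scale (limma, adjusted p = 0.126), which did not pass the test. Over the other settings run it ranged from 0.23 to 1.70, and it passed with array weights (limma, adjusted p = 0.0307) and in the 5 arrays without pancreatic RNA described next (1.70, limma, adjusted p = 0.00653). Exocrine pancreas genes were high in 7 arrays, namely replicates 2 and 3 of WT untreated, KO untreated and KO with MTX, and replicate 2 of WT with MTX. The mean of 19 such genes was at least 11.1 in these and at most 5.39 in the other 5. All 19 had a wide interval for the interaction (limma, 0 passed and 0 reached an unadjusted p under 0.05).

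The interaction passed the test in 4457 of 18820 genes (limma on log2 values, Benjamini-Hochberg adjusted p under 0.05), which is 23.7% of them, and in 4871 of the 21218 probe sets (23%). At an unadjusted p under 0.05 it held in 6280 genes (33.4%). It was positive in 2210 genes (11.7%) and negative in 2247 (11.9%), and 2844 of the genes (15.1%) passed with an interaction of at least 2-fold. Among the positive calls the median MTX effect was 1.14 in KO and -0.11 in WT, and among the negative calls it was -0.999 in KO and 0.13 in WT. The untreated genotypes differed by a median of 0.03 and -0.00398 over these same genes, and the treated genotypes by 1.31 and -1.15. Over all 18820 genes the median effect was -0.0172 in KO, -0.00281 in WT, and 0.00818 for the interaction. In the tissue as a whole, fewer cells of a type and less RNA per cell cannot be told apart.

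Within the 7 arrays with pancreatic RNA, 2538 genes were called higher and 2305 lower. In the 5 arrays without it the counts were 1619 and 1984. With pancreatic RNA as a block they were 2334 and 2404. The 7 arrays hold 1 array of treated WT mice, and the 5 hold 1 array each of untreated WT, untreated KO and treated KO mice. A group of 1 array is assumed there to vary like the others, so values within these sets are descriptions of few arrays, and a call made or missed in one of them says little about stability.

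The genes were then sorted by how each genotype moved. A gene was called opposite where the interaction passed and the arms went in different directions, each at an unadjusted limma p under 0.05. That held for 602 genes (3.2%), of which 281 (1.49%) were higher after MTX in KO and lower in WT, and 321 (1.71%) the reverse. A gene was called alike where the effect averaged over both genotypes passed, as it did in 4892 genes (26%), and the interaction did not. Both arms also had to have the same sign. The 95% interval of the interaction had to lie within 1 log2 unit either side of 0. All of this held for 1173 genes (6.23%), 830 (4.41%) rising and 343 (1.82%) falling. In 3590 genes (19.1%) the interaction passed and the KO arm alone was at an unadjusted p under 0.05. In 161 (0.855%) both arms had the same sign with the larger change in KO, and in 103 (0.547%) the WT arm alone was at that level. Among genes whose interaction did not pass, 3222 (17.1% of all genes) were undecided by this bound. Another 9967 (53%) lay within the bound with no averaged effect called.

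By itself the WT arm passed the test in 12 genes (0.0638%) and the KO arm in 6556 (34.8%). At an unadjusted p under 0.05 the WT arm held 2211 genes (11.7%) and the KO arm 8059 (42.8%). Across genes the effects of the arms, which use different mice, had a Pearson r of 0.0981, and genes are not independent replicates. Of 3540 genes (18.8%) that rose in KO mice, 1932 were above and 1608 below 0 in WT. Of the 3016 (16%) that fell in KO mice, 1720 were above and 1296 below 0 in WT.

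The count of opposite genes became 919 without KO MTX replicate 1. The count of alike genes became 623 without WT MTX replicate 2 and 760 without KO untreated replicate 2. Within the arrays with pancreatic RNA, with 1 treated WT array, 855 genes were opposite and 1925 alike, and without it, with 3 groups of 1 array, 643 and 732. Of the 602 opposite genes, 600 and 589 kept the sign of both arms within those sets of arrays. The same arrays had served to select the 602 genes, so the kept signs are no independent check. Fewer of the 602 met the full rule there, where groups of 1 array leave a missed call saying little. With 1 array left out at a time, from 384 (without WT MTX replicate 1) to 568 (without KO MTX replicate 1) of the 602 stayed opposite.

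**Figure D1:**
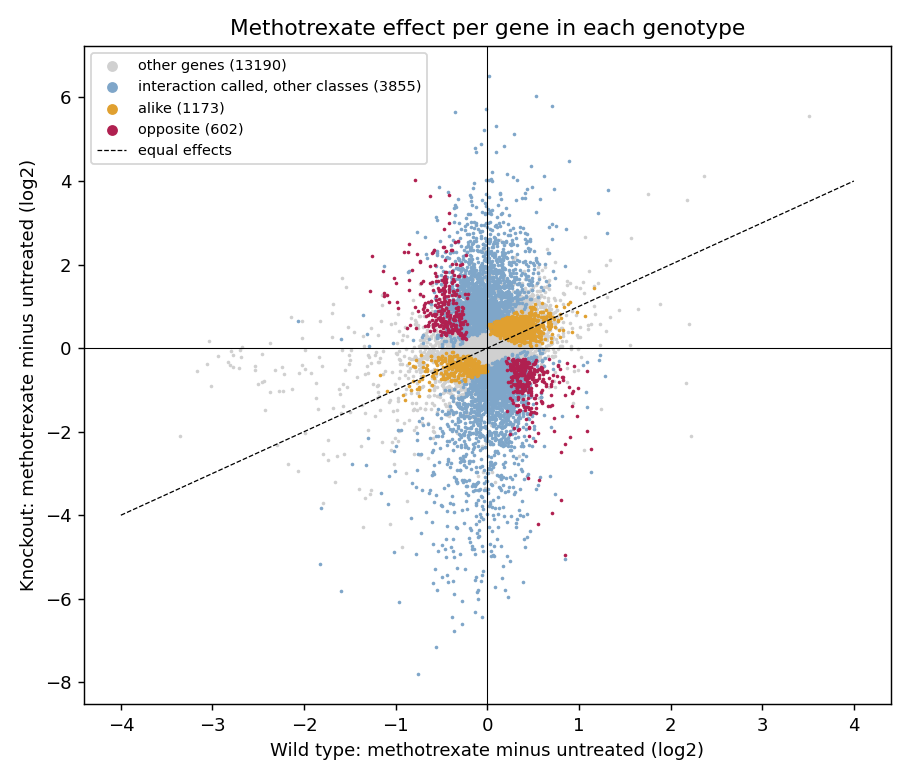
Methotrexate effect per gene in WT (horizontal axis, log2) against KO mice (vertical axis, log2), 1 point per gene, coloured by class, with the dashed line marking equal effects. Points spread further along the KO axis than the WT axis, the 602 opposite genes fill the upper left and lower right, and the 1173 alike genes lie in the upper right and lower left.

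The most negative interactions were in genes of the mature absorptive cell. Lct encodes lactase, the brush border enzyme that splits milk sugar. Its log2 signal was 11.97, 11.53 and 11.41 in untreated WT, 11.36, 9.89 and 11.40 in treated WT, 11.86, 11.25 and 11.29 in untreated KO and 3.88, 3.45 and 3.64 in treated KO mice. All 3 treated KO arrays lay far below the other 9, and among treated WT arrays replicates 1 and 3 lay just under untreated WT and replicate 2 lay lower, at 9.89. The MTX effect was -0.76 ± 0.35 in WT and -7.81 ± 0.35 in KO (each ± limma's standard error), and the interaction was -7.05 ± 0.50 (limma, adjusted p = 3.11e-06), the most negative of all 18820 genes.

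Slc2a2, the basolateral glucose transporter, read 10.51, 11.02 and 10.86 in untreated WT, 10.92, 10.47 and 10.83 in treated WT, 10.42, 10.68 and 10.83 in untreated KO and 2.93, 4.32 and 5.38 in treated KO mice. Treated KO arrays were again apart from the others, with replicate 1 lowest, and the interaction was -6.38 ± 0.64 (limma, adjusted p = 3.55e-05). Cyp2b10, a drug-oxidising cytochrome P450, had an interaction of -6.33 ± 0.37, with treated KO arrays at 3.60, 4.75 and 4.65 and every other array between 10.76 and 11.53. Otc, the urea-cycle enzyme that makes citrulline, reached -6.19, and Ugt2a3, a glucuronosyltransferase, -6.04. Sectm1b (-6.59), Slc6a20a (-6.19, an imino acid transporter), Rdh7 (-5.98, a retinol dehydrogenase), Slc5a4b (-5.90) and Cyp3a25 (-5.90) completed the 10 lowest by the rule.

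Olfm4, a marker of crypt base stem cells, belonged with these although it is not an absorptive gene. It read 10.99, 11.02 and 10.92 in untreated WT, 10.80, 11.09 and 10.90 in treated WT, 11.31, 10.83 and 10.78 in untreated KO and 7.35, 5.79 and 5.22 in treated KO mice. WT arrays overlapped fully between treated and untreated mice, and the interaction was -4.80 ± 0.57 (limma, adjusted p = 0.000111). The other stem cell genes did not share this as a set. Of 22 in that list 4 were called lower, 2 higher (Smoc2 and Cd44) and 16 were not called. The called share was 27.3%, beside 23.7% of all genes, and the list's median interaction was -0.16.

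At the positive end stood acute-phase and matrix genes. Saa3, a serum amyloid A made locally in inflamed tissue, read 2.48, 2.57 and 2.98 in untreated WT, 2.50, 2.77 and 2.80 in treated WT, 2.44, 2.65 and 2.70 in untreated KO and 10.62, 8.13 and 8.60 in treated KO mice. The 9 arrays outside the treated KO group thus lay between 2.44 and 2.98. The interaction was 6.50 ± 0.68 (limma, adjusted p = 4.73e-05). Mmp3, the matrix-degrading stromelysin of activated fibroblasts, read 3.63, 3.46 and 3.81 in untreated WT, 3.41, 3.42 and 3.00 in treated WT, 3.05, 3.66 and 3.44 in untreated KO and 9.43, 8.92 and 8.78 in treated KO mice, with an interaction of 6.01 ± 0.29.

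Lcn2, which binds bacterial siderophores, read 4.64, 4.51 and 4.73 in untreated WT, 4.92, 5.75 and 5.33 in treated WT, 5.06, 4.80 and 4.89 in untreated KO and 10.78, 11.03 and 10.33 in treated KO mice. Here the treated and untreated WT arrays did not overlap either, with a WT effect of 0.71 ± 0.21 against 5.79 ± 0.21 in KO. Lcn2 therefore fell among the genes with the same sign and the larger change in KO, with an interaction of 5.09 ± 0.30 (limma, adjusted p = 1.04e-06). The other positive genes by the rule were Pi15 (5.74), Serpina3n (5.49, a protease inhibitor of the acute phase), Lrg1 (5.27), Alpl (5.21, the tissue-nonspecific alkaline phosphatase), Hp (4.96, haptoglobin), Igfbp5 (4.93) and Cyp1b1 (4.83). Alpi, the intestinal alkaline phosphatase, read 6.65, 9.37 and 10.83 in treated KO and 11.50 to 12.32 in all other mice, and its interaction of -2.96 ± 1.08 (limma, adjusted p = 0.0732) did not pass. It passed in 6 settings: without KO MTX replicate 1 (-1.81), without KO MTX replicate 3 (-3.90), with the replicate block (limma, adjusted p = 0.0427), with pancreatic RNA as a block (limma, adjusted p = 0.0159), with array weights (-2.49), and in the 5 arrays without pancreatic RNA (-5.14), where treated KO is replicate 1 alone.

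**Figure D2:**
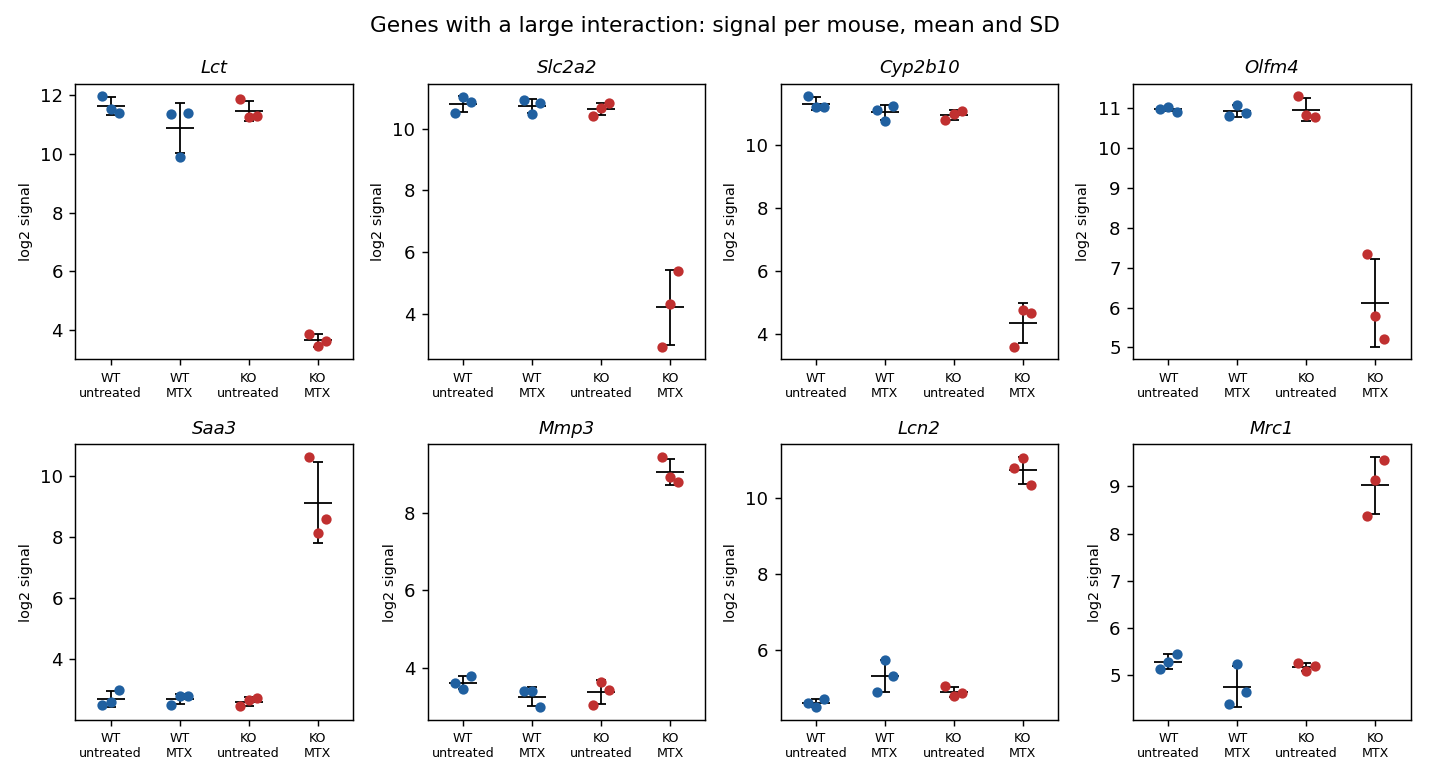
Log2 signal per mouse (points), with group mean and SD (black), for 8 genes with a large interaction, WT in blue and KO in red. In each panel the treated KO mice stand apart, below the others for Lct, Slc2a2, Cyp2b10 and Olfm4 and above them for Saa3, Mmp3, Lcn2 and Mrc1.

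By function, digestion, drug metabolism and absorption had the most negative list medians. Of 22 brush border genes for digestion and sugar uptake 20 were called lower and 0 higher, against 11.9% and 11.7% of all genes. Their median interaction was -3.83, from a median effect of -0.10 in WT and -3.74 in KO. The 2 not called were Alpi and Tmprss15, the enterokinase gene (-2.78). Xenobiotic metabolism had 29 of 31 genes called lower with a median of -3.70, and lipid absorption and chylomicron assembly 20 of 26 with a median of -2.62. Among the lipid genes were Mogat2 (-4.16), which rebuilds triglyceride, Mttp (-3.45), which loads it onto apolipoprotein B, and Npc1l1 (-4.10), the cholesterol importer. Plin2, which coats lipid droplets, was the 1 lipid gene called higher (0.73). That call was lost on leaving out WT untreated 1 or 2, or KO untreated 2 or 3. Leaving out WT MTX 1 or 2, or KO MTX 1 or 3, also lost it. So did a fit of all probe sets of the array, or arrays centred on their median.

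The list counts here and below stand beside 11.9% of all genes called lower and 11.7% called higher. Amino acid and peptide transport had 6 of 11 called lower, and iron, copper and vitamin handling 9 of 25. In ion and fluid transport 12 of 25 were called lower, with Slc26a3, the chloride and bicarbonate exchanger, at -5.20 and Cftr, the chloride channel of crypts, at -1.62. Among transcription factors of intestinal identity, 10 of 23 were called lower and 1 higher, with a median of -1.37. Hnf4g, a nuclear receptor of the enterocyte programme, moved most (-4.89), while Hnf4a reached -1.55. Cdx1 and Cdx2, chosen after their values were seen, had a positive point estimate in WT (0.58 and 0.42) beside -1.17 and -1.26 in KO. Junction genes were called lower in 11 of 26, led by Cldn15 (-2.77), a claudin that forms cation pores.

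The drug exporters split. Abcb1a, the epithelial P-glycoprotein gene, read 7.79, 7.93 and 8.07 in treated KO against 9.39 to 10.46 elsewhere, with an interaction of -1.76 ± 0.26. Abcb1b, its close relative, went the other way with 2.27 ± 0.20, at 6.22, 5.82 and 5.88 in treated KO and 3.55 to 3.98 elsewhere. Slc46a1, the proton-coupled folate transporter that also carries MTX, had an interaction of -3.47. Over the list of drug efflux and folate transport 7 of 18 genes were called lower and 3 higher.

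**Figure D3:**
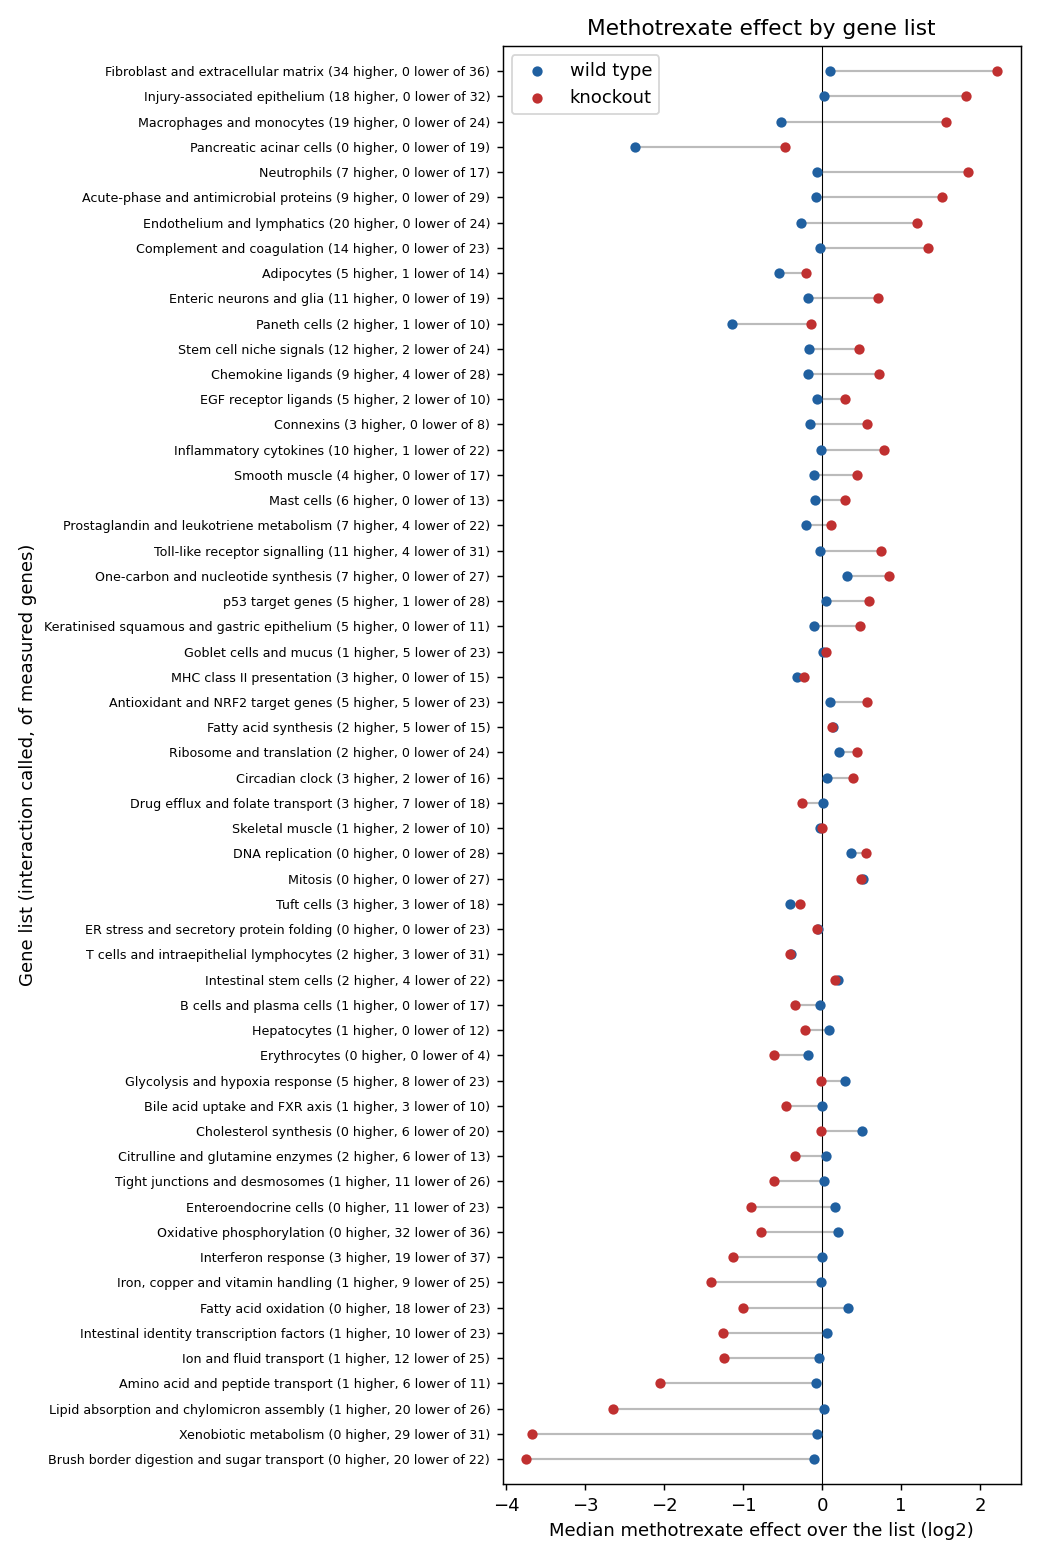
Median methotrexate effect (log2, horizontal axis) in WT (blue) and KO (red) for each gene list, ordered by the median interaction, with the number of genes whose interaction was called higher and lower. Outside the pancreatic acinar and Paneth cell lists WT medians lie between -0.54 and 0.51, and KO medians run from -3.74 for the brush border list to 2.21 for fibroblast and matrix genes.

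Energy metabolism held opposite responses with a fall in KO. In fatty acid oxidation, which breaks acyl chains down in mitochondria and peroxisomes, 18 of 23 genes were called lower. The median effect was 0.33 in WT and -0.9996 in KO, 21 of 23 genes were above 0 in WT, and 9 genes met the rule for opposite responses, beside 3.2% of all genes. They were Cpt2, Hadha, Hadhb, Acaa1b, Etfa, Etfb, Etfdh, Decr1 and Eci1. Eci1, which shifts double bonds of unsaturated acyl chains, read 8.08, 8.18 and 7.99 in untreated WT, 8.47, 8.23 and 8.53 in treated WT, 8.27, 8.02 and 8.18 in untreated KO and 6.70, 6.52 and 6.69 in treated KO mice. Treated WT arrays were all above untreated WT, and treated KO arrays all below untreated KO. The effects were 0.33 ± 0.11 and -1.52 ± 0.11, and the interaction was -1.85 ± 0.16 (limma, adjusted p = 1.39e-05). Cpt2, the inner carnitine palmitoyltransferase, chosen after its values were seen, had effects of 0.48 ± 0.13 in WT and -1.53 ± 0.13 in KO.

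Oxidative phosphorylation subunits had 32 of 36 genes called lower and 0 higher. The median effect was 0.20 in WT, with 33 of 36 genes above 0, and -0.77 in KO, where all 36 fell. Here 9 genes were opposite, among them Ndufa9 of complex I with 0.37 ± 0.14 in WT and -0.89 ± 0.14 in KO, chosen after its values were seen. That count of 9 ran from 5 to 14 when 1 array was left out, moving past 1.5 times without WT MTX replicate 3 and without KO MTX replicate 1, and it was 5 with quantile normalisation or with arrays centred on their median. In the 5 arrays without pancreatic RNA, with 3 groups of 1 array, 15 were called lower.

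Enteroendocrine genes had 11 of 23 called lower, with a median of 0.17 in WT and -0.89 in KO. The 4 opposite ones were Sct (secretin) and the fate factors Isl1, Insm1 and Pax6. Insm1 read 4.72, 4.78 and 4.79 in untreated WT, 5.36, 5.48 and 5.03 in treated WT, 5.08, 5.22 and 5.20 in untreated KO and 4.13, 4.36 and 4.37 in treated KO mice, so that treated arrays lay above untreated ones in WT and below them in KO. Its interaction was -1.41 ± 0.17 (limma, adjusted p = 0.000139). The count of 4 ran from 2 to 6 with 1 array left out and passed 1.5 times without WT untreated replicate 2.

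Positive interactions centred on stroma and injury genes. Of 36 fibroblast and extracellular matrix genes 34 were called higher, with a median effect of 0.10 in WT and 2.21 in KO. Timp1, an inhibitor of metalloproteinases, reached 4.59, Lox, which cross-links collagen, 4.02, and Spon1 3.70. Col1a1, the main fibrillar collagen and chosen after its values were seen, had effects of 0.67 ± 0.13 in WT and 2.28 ± 0.13 in KO. Among niche signals to stem cells 12 of 24 were called higher, including Grem1 (3.32), a BMP antagonist, and Rspo3 (2.47), a Wnt amplifier whose point estimates were -0.23 in WT and 2.24 in KO. Ihh, the epithelial hedgehog ligand, and its target Hhip were called lower (-2.56 and -1.82).

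Genes of injured epithelium, such as those of fetal-like regenerating crypts, were called higher in 18 of 32 with a median of 2.04. Msln reached 4.66, Anxa8 4.04 and Anxa1 3.58. The ERBB receptor ligands Ereg and Nrg1, which drive epithelial regrowth, were among the genes that moved the same way in both arms. Ereg read 5.02, 4.76 and 5.29 in untreated WT, 5.19, 6.57 and 5.97 in treated WT, 6.05, 5.50 and 5.71 in untreated KO and 10.28, 10.11 and 10.32 in treated KO mice, with 0.89 ± 0.28 in WT and 4.49 ± 0.28 in KO. The receptor partners Erbb2 and Erbb3 were called lower (-1.77 and -1.35) while Egfr was called higher (1.23).

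Gastric-type genes rose with the treated KO group as well. In a list of 11 squamous and gastric genes 5 (Krt4, Gkn1, Gkn2, Tff1 and Pgc) were called higher and 0 lower, and the list's mean signal was 4.42 to 4.64 in treated KO and 3.22 to 3.60 in the other arrays. Gkn2, a secreted protein of the gastric surface, read 5.46, 6.24 and 5.70 in treated KO and 2.88 to 3.86 elsewhere, and Tff1, the trefoil peptide of the stomach, had an interaction of 3.71 ± 0.50. Atp4a, the proton pump of acid-secreting cells, was at 3.06 to 3.85 in all arrays and its interaction of -0.48 did not pass. The part of these genes in the results on injured epithelium was not tested.

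Macrophage and endothelial genes held opposite responses with a rise in KO. Of 24 macrophage and monocyte genes 19 were called higher, and 11 met the rule for opposite responses. The median effect was -0.52 in WT, where 21 of 24 were below 0, and 1.57 in KO. Csf1r, the receptor for the growth factor of macrophages, read 8.22, 8.04 and 8.11 in untreated WT, 6.40, 7.59 and 6.99 in treated WT, 7.97, 7.58 and 7.63 in untreated KO and 8.98, 9.20 and 8.97 in treated KO mice. Every treated WT array was below, and every treated KO array above, the untreated arrays of its genotype. The effects were -1.13 ± 0.24 in WT and 1.33 ± 0.24 in KO, and the interaction was 2.46 ± 0.33 (limma, adjusted p = 0.000277).

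The C1q chains, complement starters made by resident macrophages, moved together. C1qc read 8.16, 8.32 and 8.26 in untreated WT, 6.36, 7.66 and 7.30 in treated WT, 8.40, 8.06 and 7.74 in untreated KO and 9.08, 10.16 and 10.50 in treated KO mice, and its interaction was 2.99 ± 0.53. Its interaction in the 5 arrays without pancreatic RNA was 2.02 (limma, adjusted p = 0.0566). C1qb had -1.0024 in WT and 1.57 in KO, and C1qa -0.85 and 1.62. Cd68, Adgre1, Lyz2, Msr1, Fcgr1, Mpeg1 and Ctss were the other opposite members. Mrc1, the mannose receptor, had the largest interaction of the list (4.38 ± 0.39), with treated WT arrays at 4.39, 5.24 and 4.65 overlapping the untreated ones at 5.13, 5.28 and 5.46. Cx3cr1 and Mertk, also macrophage receptors, were not called (0.00 and -0.62). The count of 11 ran from 6 to 13 with 1 array left out, passed 1.5 times without WT MTX replicate 1, and was 5 within the 7 arrays with pancreatic RNA, where treated WT is 1 array.

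Endothelial and lymphatic genes had 20 of 24 called higher and 9 opposite, with medians of -0.27 in WT and 1.21 in KO. Cdh5, the cadherin of vessel walls, read 6.98, 6.69 and 6.68 in untreated WT, 6.34, 6.21 and 6.36 in treated WT, 6.56, 6.56 and 6.40 in untreated KO and 8.26, 8.02 and 8.08 in treated KO mice. The arrays of treated and untreated mice did not overlap in either genotype, and the interaction was 2.09 ± 0.16 (limma, adjusted p = 5.64e-06). Selp, the P-selectin of activated vessels, reached 3.24 from 0.03 in WT. There were 2 opposite in the 5 arrays without pancreatic RNA, with 3 groups of 1 array. Enteric neuron and glia genes had 11 of 19 called higher.

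Of the 602 opposite genes, 5 passed after adjustment in both arms. Ptges, the inducible prostaglandin E synthase, read 6.74, 6.63 and 6.68 in untreated WT, 5.81, 5.84 and 5.66 in treated WT, 6.53, 6.41 and 6.23 in untreated KO and 8.42, 8.79 and 8.86 in treated KO mice. It fell in WT (-0.91 ± 0.13) and rose in KO (2.30 ± 0.13), and its interaction of 3.21 ± 0.18 (limma, adjusted p = 7.51e-07) was the only positive one of the 5. Pafah2, which cleaves oxidised phospholipids, read 7.62, 7.57 and 7.75 in untreated WT, 8.66, 8.68 and 8.58 in treated WT, 7.76, 7.71 and 7.68 in untreated KO and 7.02, 6.60 and 6.67 in treated KO mice. It rose in WT (0.99 ± 0.11) and fell in KO (-0.96 ± 0.11) by almost the same amount. Gramd2 (0.85 in WT, -1.12 in KO), Gstp3 (0.95 and -0.44), a glutathione transferase, and Slc6a7 (0.87 and -0.36), a proline transporter, also rose in WT and fell in KO.

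Ranked by the smaller of their arms, the opposite genes with a KO rise were led by Mmp9, a gelatinase of myeloid cells. It read 7.07, 7.50 and 7.32 in untreated WT, 5.79, 6.40 and 5.94 in treated WT, 6.78, 6.69 and 6.48 in untreated KO and 9.16, 8.46 and 8.97 in treated KO mice, with an interaction of 3.47 ± 0.29. Those with a KO fall were led by Hnf4aos, the antisense transcript of Hnf4a, with 1.14 ± 0.25 in WT and -2.42 ± 0.25 in KO. The strand used by the probes is not given in the sources used here, so Hnf4aos and Hnf4a may share signal. Aldoc, a glycolytic aldolase, had 1.09 and -1.98. Ccl28, a chemokine of mucosal epithelium, had the largest size of interaction among the opposite chemokines. It read 7.42, 7.59 and 7.80 in untreated WT, 8.33, 8.49 and 8.11 in treated WT, 8.21, 7.90 and 7.81 in untreated KO and 3.89, 4.02 and 4.19 in treated KO mice, and the interaction was -4.64 ± 0.21 (limma, adjusted p = 2.8e-07).

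**Figure D4:**
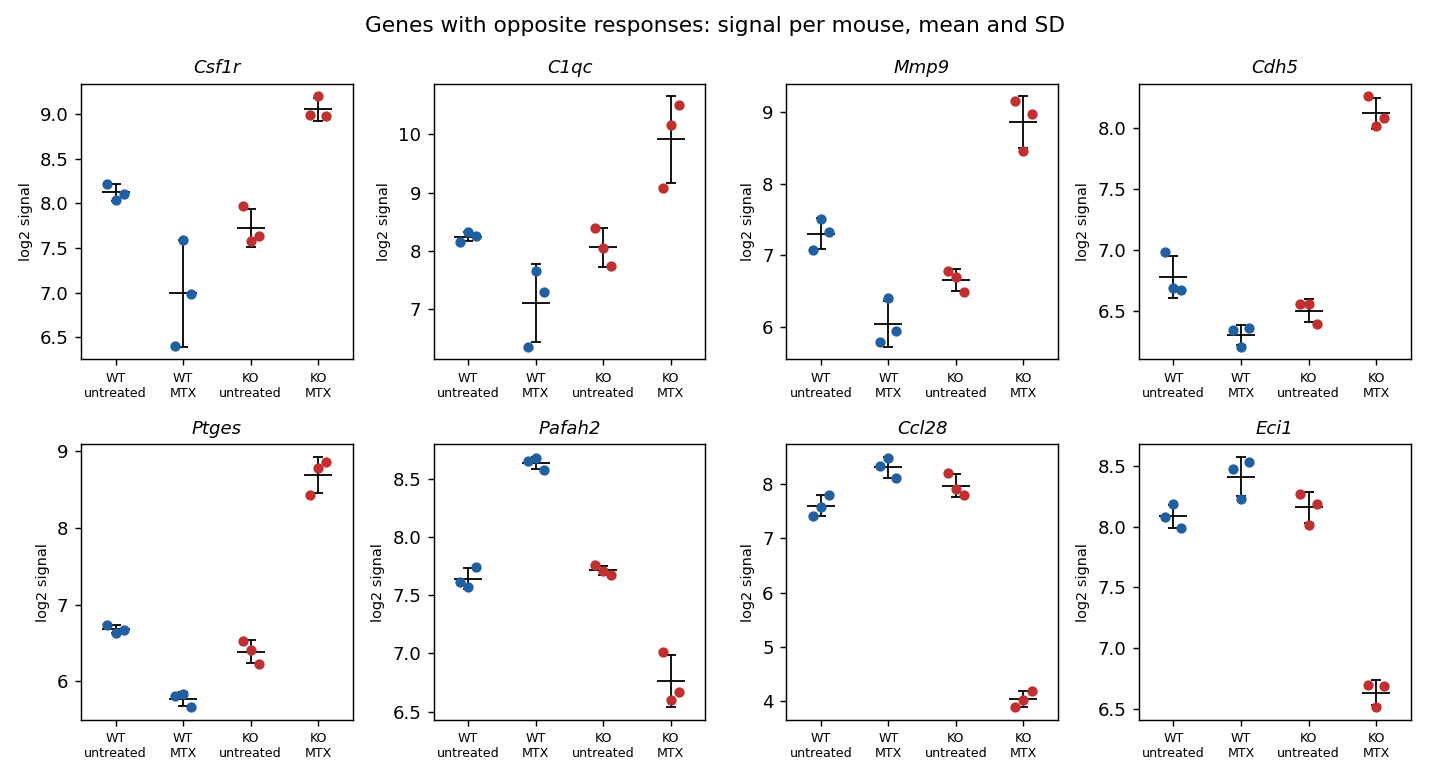
Log2 signal per mouse (points), with group mean and SD (black), for 8 genes with opposite responses, WT in blue and KO in red. Csf1r, C1qc, Mmp9, Cdh5 and Ptges were lower after methotrexate in WT and higher in KO, and Pafah2, Ccl28 and Eci1 the reverse.

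Among inflammatory signals the calls ran mostly upward. Cytokine genes had 10 of 22 called higher and 1 lower. Il33, an alarmin of epithelium and stroma, reached 3.70 and Il1rn, the natural inhibitor of interleukin-1, 3.42, while Il18, an epithelial cytokine, was the 1 called lower (-3.06). Tnf had an interaction of 0.95 ± 0.28 (limma, adjusted p = 0.0318), which was lost on leaving out any of 7 arrays, namely WT untreated 2 or 3, KO untreated 2 or 3, or any treated WT array. Il1b did not pass (1.09 ± 0.97): 1 treated KO array read 7.62 and the other 11 arrays 3.89 to 4.64. In the 5 arrays without pancreatic RNA, where that array stands alone for treated KO, it was 3.27 (limma, adjusted p = 0.00106).

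Of 28 chemokine ligands 9 were called higher and 4 lower. Ccl11, which draws eosinophils, reached 3.42 and Cxcl5 3.20. The called-lower ligands were Ccl25, Ccl28, Cx3cl1 and Cxcl11, the first 2 of them known from gut epithelium. In Toll-like receptor signalling 11 of 31 were called higher and 4 lower. The higher ones included the receptors Tlr4 (2.30) and Tlr13 (2.94), with WT point estimates of -0.30 and -0.58, and the adaptor Myd88 (0.91). The lower ones were Tlr3 (-1.07), its adaptor Ticam1 (-1.67), Irak2 and Sigirr, an inhibitor of the pathway. Complement and coagulation had 14 of 23 called higher (60.9%), and acute-phase and antimicrobial proteins 9 of 29 (31.0%), beside 11.7% of all genes. Reg3g, a lectin that kills Gram-positive bacteria, did not pass. It read 9.89, 8.67 and 9.88 in untreated WT, 10.60, 10.72 and 11.15 in treated WT, 10.10, 8.88 and 8.42 in untreated KO and 11.16, 11.48 and 11.11 in treated KO mice, and the 95% interval of its interaction was -0.50 to 2.06.

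The interferon response went against this direction. Of 37 genes 19 were called lower and 3 higher, and the median effect was -0.00115 in WT and -1.13 in KO. Cmpk2, a mitochondrial nucleotide kinase induced by interferon, read 7.74, 7.37 and 7.06 in untreated WT, 7.85, 6.71 and 7.55 in treated WT, 8.57, 7.63 and 7.94 in untreated KO and 4.62, 4.44 and 4.87 in treated KO mice, and its interaction was -3.39 ± 0.43 (limma, adjusted p = 0.000178). Ifit1, which binds viral RNA caps, had -3.19 ± 0.50, and Ddx60, a helicase of RNA sensing, -2.93 ± 0.42. Treated WT replicate 2 was the lowest of its group for all 3 genes. The 3 called higher were Gbp2, Gbp7 and Iigp1, GTPases known for induction by interferon gamma.

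Interferon-induced promoters often hold a pair of GAAA repeats. The motif GAAANNGAAA was searched on both strands in the RefSeq promoter windows of GRCm38.p6, each 300 bases long, and was found in 1079 of 27025 genes (3.99%). It was in 16 of the 28 interferon list members with a window (57.1%). Among called-lower members it was in 9 of 15 (60%) and among the other members in 7 of 13 (53.8%). The 150 bases before the start are shown for 3 of the leading genes, because they differ in the motif, and all 3 were called lower. Within these 150 bases 2 of them hold the motif at 2 places and the third holds 0 matches. Psmb9, a leading gene also called lower and not shown, holds 0 matches in its 150 bases too. Capitals mark the motif, read as TTTCNNTTTC where it lies on the other strand.
Ifit1, chr19:34640739-34640888, + strand: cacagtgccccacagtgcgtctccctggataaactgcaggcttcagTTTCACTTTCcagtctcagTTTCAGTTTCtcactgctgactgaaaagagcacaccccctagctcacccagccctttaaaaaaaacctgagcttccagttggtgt
Ddx60, chr8:61927937-61928086, + strand: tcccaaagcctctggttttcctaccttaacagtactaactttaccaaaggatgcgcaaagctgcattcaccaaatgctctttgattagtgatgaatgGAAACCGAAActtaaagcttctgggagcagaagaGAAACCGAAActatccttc
Cmpk2, chr12:26469065-26469214, + strand: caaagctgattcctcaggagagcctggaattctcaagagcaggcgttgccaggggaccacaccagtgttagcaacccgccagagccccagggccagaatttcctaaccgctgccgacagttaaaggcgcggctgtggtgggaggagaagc
The Ddx60 matches are on the printed strand and those of Ifit1 on the other. These are matches of letters, and no binding was measured.

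The 1173 alike genes passed on the effect averaged over both genotypes, and neither arm had to pass by itself. With a log2 fold minimum of 1, 5 genes were alike. Cfhr2, a complement factor H relative, had the largest averaged rise and read 4.92, 4.78 and 4.97 in untreated WT, 5.64, 6.33 and 6.19 in treated WT, 4.48, 4.59 and 4.66 in untreated KO and 5.94, 5.86 and 6.27 in treated KO mice. Treated arrays were above untreated ones in each genotype, with effects of 1.17 ± 0.17 in WT and 1.44 ± 0.17 in KO, and the 95% interval of the interaction was -0.26 to 0.81. Noxo1, a subunit of the epithelial NADPH oxidase, had 0.97 in WT and 0.86 in KO with an interval of -0.75 to 0.52. Kdelr3, a receptor that returns proteins to the endoplasmic reticulum, had 0.84 and 0.98, and Sh3bgrl2 0.90 and 1.10. Capn5, a calpain protease, had 0.59 and 1.09 with an interval of 0.05 to 0.94, and it became a call with quantile normalisation, with array weights and without WT untreated replicate 1. Kdelr3 was already higher in untreated KO than in untreated WT mice, at 7.22, 7.33 and 7.64 against 6.45, 6.66 and 6.66.

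Falling alike genes included markers of intraepithelial lymphocytes, the T cells lodged between enterocytes. Itgae, the integrin that anchors them to E-cadherin, read 6.57, 6.51 and 6.74 in untreated WT, 6.01, 5.71 and 5.78 in treated WT, 5.97, 5.83 and 6.18 in untreated KO and 4.77, 5.11 and 5.13 in treated KO mice. Its effects were -0.77 ± 0.14 and -0.99 ± 0.14, with an interval of the interaction of -0.64 to 0.21. Cd96 (-1.10 in WT, -1.02 in KO) and Klrd1 (-1.18, -0.65), both receptors of cytotoxic lymphocytes, were alike as well, and Klrd1 became a call with array weights, without KO untreated replicate 3, and in the 5 arrays without pancreatic RNA (limma, adjusted p = 0.0397). In the T cell and intraepithelial list, 24 of 31 genes were below 0 in WT, the medians were -0.39 in WT and -0.41 in KO, and the median interaction was -0.09. Of these 31 genes 4 were alike, beside 6.23% of all genes, and 13 were undecided by the bound. The interaction was called lower in 3 and higher in 2, a share of 16.1% beside 23.7% of all genes. Untreated mice already differed, with a list median of -0.33 for KO minus WT. For Itgae every untreated KO array lay below every untreated WT array. The alike count ran from 2 to 5 with 1 array left out and the called-lower count from 0 to 5, past 1.5 times for one or both without WT untreated 2 or 3, KO untreated 3 or any treated WT array. Gzmb, the granzyme of killer cells, had -1.48 ± 0.25 in WT and -2.77 ± 0.25 in KO, and its interaction of -1.30 ± 0.35 (limma, adjusted p = 0.0203) was lost without any 1 of WT untreated 3, KO untreated 3, WT MTX 3 and KO MTX 2. In the 5 arrays without pancreatic RNA the Gzmb interaction was -0.49 (limma, adjusted p = 0.388). Cd4 was the 1 opposite gene of the list (-0.76 and 0.88), with an interaction of 0.65 in those 5 arrays. It was no longer opposite without any 1 untreated WT array, KO untreated 3, WT MTX 3, or KO MTX 2 or 3. Alas2, the haem synthesis enzyme of red cell precursors, led the falls with -0.90 and -1.24, and became a call with array weights.

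**Figure D5:**
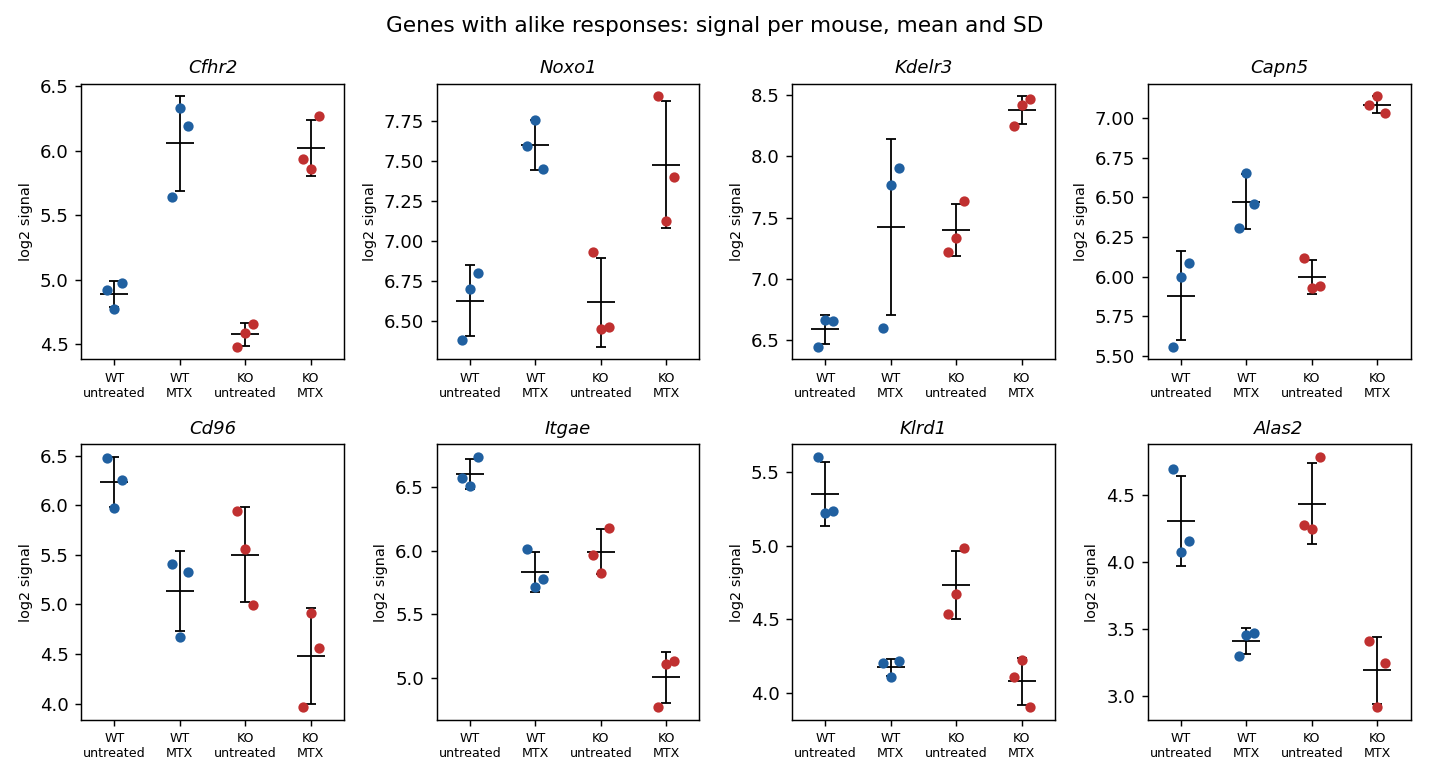
Log2 signal per mouse (points), with group mean and SD (black), for 8 genes with alike responses, WT in blue and KO in red. Cfhr2, Noxo1, Kdelr3 and Capn5 were higher and Cd96, Itgae, Klrd1 and Alas2 lower after methotrexate in both genotypes.

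Growth genes showed no interaction that passed. In DNA replication 0 of 28 and in mitosis 0 of 27 genes were called (limma), with 2 and 0 at an unadjusted p under 0.05, and at these lists' medians the effects were 0.37 and 0.51 in WT and 0.56 and 0.49 in KO. In WT all 28 and all 27 point estimates were above 0. The intervals were too wide to call the arms alike in 21 and 26 of them, so that these intervals reached past a 2-fold difference. The mean level of the mitosis list was 7.60 in WT MTX replicate 2, which carried pancreatic RNA, and 7.90 in KO MTX replicate 1, which did not, and at most 7.08 in the other arrays. Each is the only array of its group in its set: within the 7 arrays with pancreatic RNA 5 replication and 10 mitosis genes were called lower, and within the 5 without it 6 and 2 were called higher. With pancreatic RNA as a block 1 replication gene was called higher and 0 mitosis genes were called. Leaving out 1 array gave at most 2 replication calls per direction, with calls appearing without WT MTX replicate 2 or any treated KO array. Mki67, expressed in cycling cells, read 8.14, 8.39 and 8.25 in untreated WT, 8.46, 9.05 and 8.48 in treated WT, 8.79, 8.25 and 8.28 in untreated KO and 9.55, 8.52 and 8.21 in treated KO mice, with replicate 1 highest in treated KO, and its interaction was -0.08 ± 0.43 with an interval of -1.02 to 0.86. Lgr5, the stem cell receptor, had an interval of -1.35 to 0.61, although Olfm4 was called. Muc2, the goblet cell mucin, had -0.44 to 1.28, Cdkn1a, the cell cycle inhibitor under p53, -1.08 to 0.62, and Lyz1, the Paneth cell lysozyme, 0.14 to 1.58. The lists for these functions did hold calls. They were 1 higher and 5 lower of 23 goblet, 5 and 1 of 28 p53 target, and 2 and 1 of 10 Paneth genes. The called shares were 26.1%, 21.4% and 30%, beside 23.7% of all genes. The 5 p53 targets ran from 3 to 9 with 1 array left out. Lyz1 passed without WT MTX replicate 2 (1.17, limma, adjusted p = 0.00303) and with array weights (1.17), and Cdkn1a in the 5 arrays without pancreatic RNA (-1.20, limma, adjusted p = 0.0314). Tff3, the goblet cell trefoil peptide, had an interaction of -0.63 that passed without WT MTX replicate 1.

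Of 27 genes of folate-dependent one-carbon and nucleotide synthesis 7 were called higher and 0 lower, a share of 25.9% beside 23.7% of all genes, with medians of 0.32 in WT and 0.85 in KO. Mthfd1l, a mitochondrial formate enzyme, reached 1.67 and Ctps, which makes CTP, 1.63. That count ran from 4 to 8 with 1 array left out, past 1.5 times without WT untreated 3, KO untreated 2 or WT MTX 3, and in the 5 arrays without pancreatic RNA, with 3 groups of 1 array, it was 14. Cholesterol synthesis had 6 of 20 called lower, among them Dhcr7 (-1.47). Another 6 were alike, among them Sqle (0.79 in WT, 0.82 in KO) and Lss (0.66, 0.84). The alike count ran down to 3 without WT untreated 1 or WT MTX 1, and the called-lower count up to 10 without KO MTX 1. ER stress and protein folding had 0 of 23 called (limma, 2 at an unadjusted p under 0.05; at most 1 per direction with KO untreated 2, KO untreated 3 or KO MTX 1 left out), and 15 intervals lay within the bound. Ribosome and translation genes had 18 of 24 within it, and 2 called higher (8.33%, beside 11.7% of all genes). Over all genes 61.1% of intervals lay within the bound. In the ribosome list 9 genes were alike, beside 6.23% of all genes. That count fell to as few as 3 and did so past 1.5 times without WT untreated 1, KO untreated 2 or WT MTX 2. Rpl5, chosen after its values were seen, had 0.30 and 0.47.

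Few interactions came from the WT arm. Igha, the constant region of IgA, read 9.39, 9.72 and 10.01 in untreated WT, 8.90, 7.11 and 6.92 in treated WT, 7.61, 8.28 and 8.04 in untreated KO and 8.53, 9.49 and 7.85 in treated KO mice. Treated WT arrays were below untreated WT, KO arrays overlapped, and untreated KO arrays lay below untreated WT ones. The interaction was 2.71 ± 0.71 (limma, adjusted p = 0.0165), and it was lost with the mean of its probe sets (1.37, limma, adjusted p = 0.175). In the 5 arrays without pancreatic RNA the interactions of Igha, Cldn4 and Cyp1a1 were 2.40, 0.90 and -1.42, and none was called (limma, adjusted p = 0.194, 0.465 and 0.144). Cldn4, a sealing claudin, read 9.23, 9.27 and 9.43 in untreated WT, 7.05, 7.76 and 8.34 in treated WT, 9.88, 9.52 and 9.65 in untreated KO and 9.25, 10.13 and 10.35 in treated KO mice, with -1.59 ± 0.32 in WT and 0.22 ± 0.32 in KO. In the other direction, Cyp1a1, the classic target of the aryl hydrocarbon receptor, had 1.22 ± 0.27 in WT and -0.29 ± 0.27 in KO. Its untreated levels already differed, at 5.79, 5.45 and 5.97 in WT and 3.20, 3.78 and 3.59 in KO. Apoa2, an apolipoprotein of HDL, had 1.28 ± 0.37 and -0.67 ± 0.37, and Acta1, skeletal muscle actin, 1.23 ± 0.21 and -0.17 ± 0.21.

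Genes named for miRNAs were called in 14 of 303 cases, 7 in each direction. That is 4.62% of them, a lower share than the 23.7% of all genes. The largest with a RefSeq sequence were chosen after their values were seen. Mir675 read 2.85, 3.27 and 2.95 in untreated WT, 3.07, 3.20 and 3.28 in treated WT, 2.90, 3.02 and 3.08 in untreated KO and 5.30, 5.27 and 5.35 in treated KO mice, and its interaction was 2.15 ± 0.17 (limma, adjusted p = 6.11e-06). Mir680-1 had -1.92 ± 0.29 and Mir677 -1.05 ± 0.27. Mir143 (2.62) and Mir145a (1.46), which are known from smooth muscle, were called higher. The array does not tell the arms of a hairpin apart, and signal of the longer transcript may be read too. The mature forms in RefSeq (GRCm38.p6) are shown with the seed, bases 2 to 8, in capitals, to let their seeds be compared.
mmu-miR-675-5p, chr7:142577112-142577133, - strand: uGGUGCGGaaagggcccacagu
mmu-miR-675-3p, chr7:142577078-142577099, - strand: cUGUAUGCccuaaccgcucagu
mmu-miR-680, chr6:129691541-129691561, + strand: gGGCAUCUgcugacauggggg
mmu-miR-677-5p, chr10:128085291-128085312, + strand: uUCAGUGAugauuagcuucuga
mmu-miR-677-3p, chr10:128085335-128085360, + strand: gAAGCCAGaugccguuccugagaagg
No 2 of these 5 share a seed.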

How the data were processed

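Affymetrix arrays of 12 mice were used as deposited. The authors made log2 values per probe set with RMA (version not given), per the submitters' processing notes. No source used here gives the array's build. Gene symbols came from the platform annotation: 21218 probe sets had 1 symbol, 1881 several and 12457 none, and 21185 of the first matched the RefSeq table of GRCm38.p6. A gene was represented by its probe set of highest mean signal. Array medians were 4.37 to 4.56, and arrays give no read depth, so the number of mice limits precision.

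Contrasts were fitted with limma 3.58.1 in R 4.3.3 (lmFit, eBayes, a mean per group, 8 residual degrees of freedom), adjusted by Benjamini-Hochberg over 21218 probe sets, with no fold minimum. Values after ± are standard errors, and the fit was tested on simulated data. The members and all gene lists were chosen with earlier results of these data known. Genes were named by rule: the 10 largest interactions per direction among calls whose KO arrays did not overlap, 10 opposite, 8 alike and 5 larger in WT per direction, up to 4 per list by p, and 18 fixed genes, leaving out predicted and miRNA genes. Further genes in the text, such as Mttp, Npc1l1, Ihh, Il33 and Sqle, lie outside this rule and were chosen with their values seen. Counts of named genes under the settings leave these further genes out. Alternatives were a fold minimum, a signal filter, probe set rules, 2 scalings, blocks, variance models, class limits and leaving out each array.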

Additional observations from a re-analysis of the deposited data

Results flagged for a closer look

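The MTX effect differed between the genotypes by the interaction test in 4457 genes, and 602 of these met the rule for opposite responses. Adjusted p-values passed in both arms for 5 of them, whose interactions on the log2 scale were 3.21 for Ptges, -1.97 for Gramd2, -1.95 for Pafah2, -1.39 for Gstp3 and -1.23 for Slc6a7. Probe sets that the annotation pairs with several genes or none were not used for any gene. In a fit of all 35556 probe sets, with the adjustment over all of them, 910 of 14338 such probe sets (6.35%) were called. Of these 329 were higher and 581 lower. That same fit called 1972 of the 18820 genes higher and 2005 lower. Groups of 3 mice were not tested for single outlying arrays.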

How the results depend on the processing

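No called gene among those named by the rule changed the sign of its interaction under any setting run. A log2 fold minimum of 1 left 1361 genes called lower and 5 alike. Array weights gave 3772 genes called higher, 3649 lower, 1696 opposite and 2646 alike. Alike genes numbered 206 with the interval held to 0.5, 1925 within the arrays with pancreatic RNA (1 treated WT array) and 732 within those without it (3 groups of 1 array). Opposite genes numbered 5 with adjusted p in both arms and 981 where arrays had only to be free of overlap in both arms. Leaving out 1 array at a time gave 1869 to 2493 called higher, 1900 to 2662 called lower, 443 to 919 opposite and 623 to 1205 alike.

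Of 226 genes named by the rule with a call, 181 kept it in every setting, and of 57 without one, 23 stayed without. Of 318 called genes with several probe sets, 269 had the same sign in all of them and 143 were called in all of them.

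Replicate numbers do not pair mice by any label. Same-numbered arrays had deviations correlated at -0.473 to 0.653 (median 0.295, 18 pairs), and 9 of 12 arrays correlated best with an array of their own number. Between arrays of other numbers the correlations were -0.628 to 0.562 (median -0.243, 36 pairs). With the replicate block, 2231 genes were called higher, 2229 lower, 628 opposite and 1081 alike.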
